A study of Mus musculus with 8 samples.

Results

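The transcription start site (TSS) clusters of Akap12 were described by position, width and sequence in wild-type mouse embryonic stem cells (mESCs) and in cells lacking PWWP2A and PWWP2B. The members were the same-strand CAGE tag clusters whose dominant TSS, the base with the most 5′ ends, lay between 500 bp upstream of the gene and its end. They numbered 53 of 32857 clusters in wild-type E14, 53 of 33005 in Pwwp2a/b DKO clone A1 and 53 of 32870 in DKO clone C7. The gene had been chosen by its number of exonic clusters in E14, so that number is a description and not a result. The nearest same-strand clusters left out had their dominant TSSs 12435 bp upstream of the gene and 27684 bp beyond its end, and the outermost ones kept lay 231 bp upstream of the start and 447 bp before the end.

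CAGE-seq captures the cap of RNA polymerase II transcripts and reads the base at which each begins. Cluster positions alone do not show whether an exonic 5′ end was made by initiation at that base, which was not tested, and "start" and "TSS" are used below for the position called. Nuclear RNA was taken from E14 (3 libraries), from the double PWWP2A/B knockout clone A1 (2 libraries) and from the double knockout clone C7 (3 libraries), all grown with serum and LIF without other treatment, and each knockout line is a single clone of E14. The authors merged the libraries of a line before calling clusters, so each line is 1 set of positions with no replicate error. A score of 0 stood in every row, so how many transcripts began at a cluster, and the depth behind it, were not known from these values.

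AKAP12, also called gravin or SSeCKS, is an anchoring protein that holds protein kinase A and protein kinase C near the plasma membrane and the actin cytoskeleton. Isoforms with different amino ends arise from separate promoters, and the long one carries a myristoylated end encoded in the first exon. PWWP2A and PWWP2B recruit a histone deacetylase complex and recognise H3K36me3, a mark laid over the bodies of transcribed genes, and the study asked whether their loss changes initiation inside genes.

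Akap12 (ENSMUSG00000038587.9) is transcribed from the plus strand on chromosome 10 and spans 93091 bp of mm10, from 4266380 to 4359470. The long coding transcript has 4 exons and a coding sequence of 5052 nt. Exon 3, from 4353142 to 4357939, is 4798 bp long and holds 4787 bp of coding sequence, nearly all of the protein. The other coding transcript starts at 4347768 and a noncoding one at 4346841, both inside intron 2. Gm30570, 53266 bp upstream, and Zbtb2, 7605 bp downstream, are both on the opposite strand. None of the 53 clusters thus lay on the strand of either, and other genes nearby were not examined.

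In each line 4 clusters lay within 500 bp of an annotated start, 43 in exons and 6 in introns. Of the exonic clusters, 39 were in exon 3, 1 in exon 2 and 3 in the 3′ UTR in exon 4. The exonic clusters in exons 2 and 3, 40 in all, were in coding sequence. No cluster lay within 500 bp of the starts of the other 2 transcripts, whose nearest downstream dominant TSS, at 4353244 in exon 3, was 5476 and 6403 bp away.

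**Figure D1:**
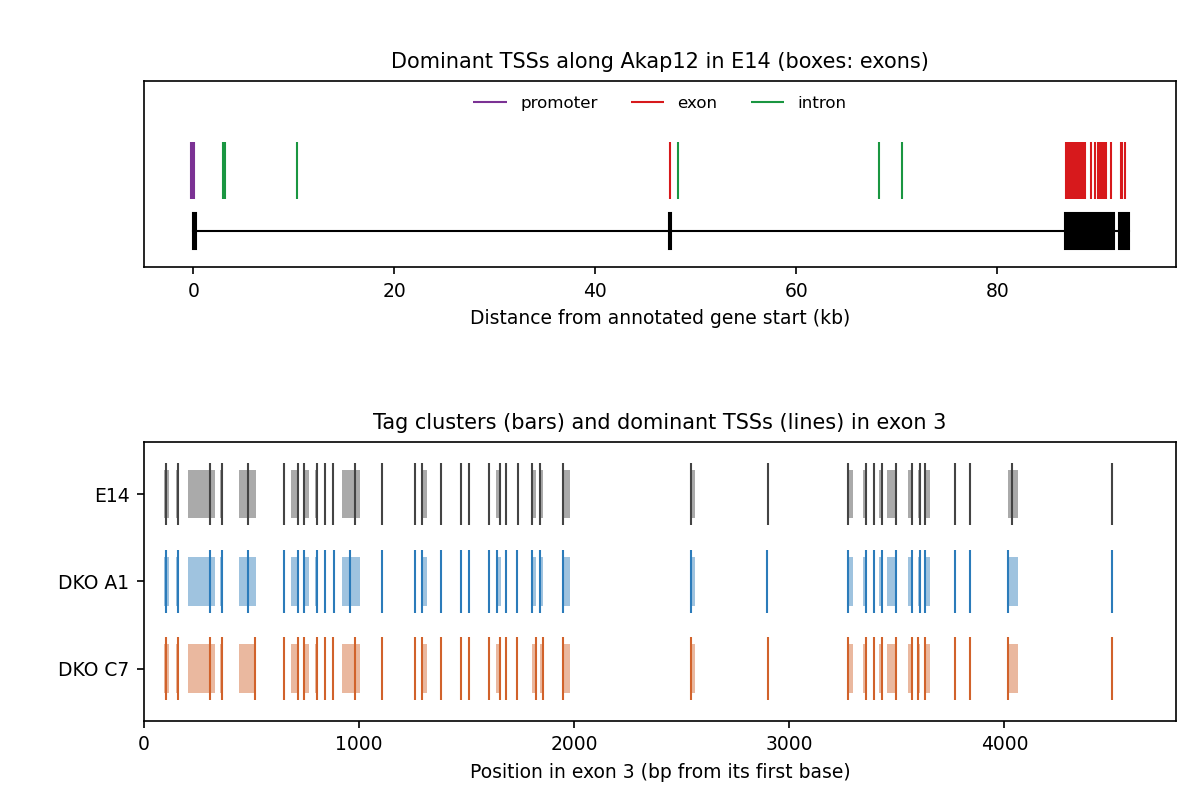
Position of Akap12 start clusters. The upper panel shows dominant TSSs in E14 by distance from the annotated gene start (kb), coloured by category, above the 4 exons. The lower panel shows clusters (bars) and dominant TSSs (lines) by position in exon 3 (bp) for each line. The 39 clusters of exon 3 occupy the same stretches in all 3 lines, and none lies between positions 2001 and 2500.

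The letters around dominant TSSs in exon 3 are shown because most shared a feature that the choice of the gene did not use, a pair of guanines just before the start. The examples run from 12 bases before the dominant TSS to 13 after it on the plus strand of mm10, and the capitals mark the guanine pair, so that the base after the capitals is the dominant TSS.

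chr10:4353436-4353461: aaggcgaaggGGcagaagcctccgtc
chr10:4353847-4353872: aggaagaaggGGaaaagacagagcca
chr10:4353874-4353899: ccccagccgaGGagcaggagcctgca
chr10:4354422-4354447: aagcagaaggGGaagagaggaggagg
chr10:4355672-4355697: tttaccagggGGcaaagatgcccatg
chr10:4356625-4356650: aagaactggaGGtgcctgtgcacact

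A dominant TSS without the pair is shown for contrast, with the dominant TSS itself in capitals. It had no guanine at either of the 2 bases before it in E14.

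chr10:4356736-4356761: aagaacagagtaTtagcccggagaaa

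Of the 43 exonic dominant TSSs, 31 followed GG in E14 (72.1%, 95% Wilson interval 57.3 to 83.3), 28 in A1 (65.1%, 50.2 to 77.6) and 29 in C7 (67.4%, 52.5 to 79.5). The 3 intervals overlap. They cover counting error only, and the clusters share 1 gene. GG preceded 6.73% of all positions of exons 2 to 4 on this strand. A guanine stood at 1 or both of these bases at 42 of the 43 in E14, and at 2961 of the 5901 positions of the same exons. The feature was read after the sequences had been seen.

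The pair was common at exonic clusters of other genes as well. It preceded 64.1% of all 4248 exonic dominant TSSs with sequence in E14, 62.9% in A1 and 64.0% in C7, shares inside the interval of Akap12 in the same line. So Akap12 did not stand apart from exonic clusters at large in this respect beyond counting error.

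A pyrimidine followed by a purine at positions -1 and +1 is the usual initiator of mammalian promoters. It was found at 1 of the 43 exonic dominant TSSs in E14 (2.33%), and at 2 in A1 and 2 in C7 (4.65% each). A guanine at -1, found at 34 of the 43 in E14, leaves no pyrimidine there. The low share is thus not independent of the GG result. The share was 19.9% over all positions of exons 2 to 4 and 10.4% over all exonic clusters of E14. RefSeq promoter windows (GRCm38.p6) held sequence for only 36.1% of the promoter clusters of E14, so no comparison with promoter clusters as a whole can be drawn. In the 7173 that had sequence, as a description of these alone, 81.9% had the pyrimidine-purine pair and 5.13% followed GG. The windows hold no entry for Akap12.

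Further letters recurred downstream of the start. AG stood at positions +4 and +5 at 16 of the 43 exonic dominant TSSs in E14 (37.2%), and at 18 in A1 and 18 in C7 (41.9% each), against 12.1% of positions in exons 2 to 4 and 20.3% of all exonic clusters of E14. The whole arrangement GGNNNAG, with the dominant TSS at the first N, was found at 12 exonic clusters in E14 (27.9%, 95% Wilson interval 16.7 to 42.7), and at 11 in A1 and 11 in C7. It was present at 0.966% of positions in these exons and at 13.9% of all exonic clusters in E14. The lower bound for Akap12 lay above the share of all exonic clusters in E14, but the letters were picked after the sequences were seen, so this is a description. An adenine was at +4 of 64.1% of the 39 exon 3 clusters in E14, beside 49.2% of all exonic clusters and 31.0% of exon 3 positions.

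**Figure D2:**
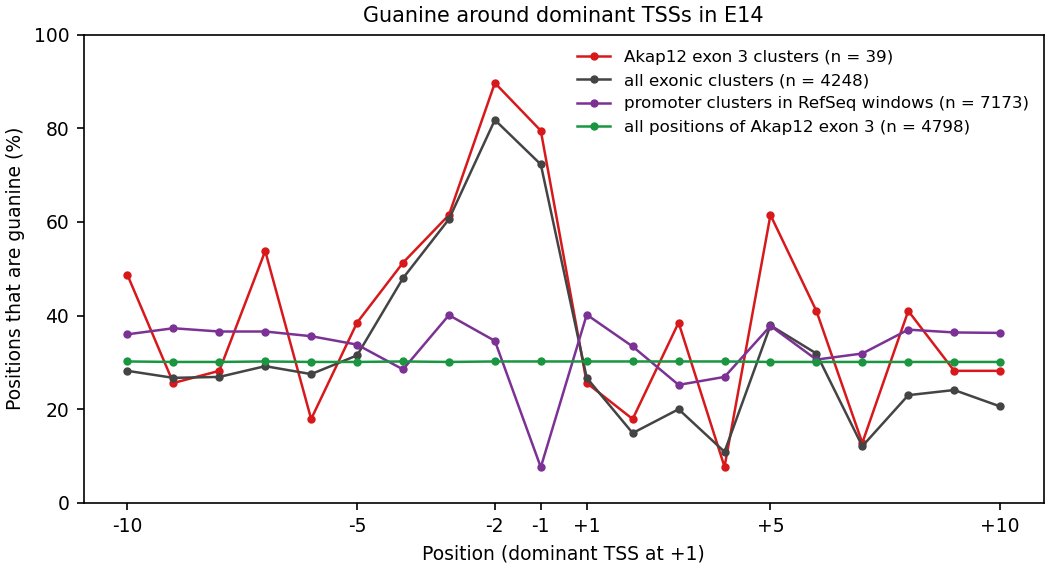
Share of positions that are guanine (%) by position around the dominant TSS (+1) in E14, for Akap12 exon 3 clusters, all exonic clusters, promoter clusters inside RefSeq windows and all positions of exon 3. Exon 3 clusters reach 89.7% at -2 and 79.5% at -1, and the base composition of the exon is 30.2% guanine.

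GG itself was frequent in exon 3, and most of its occurrences carried no dominant TSS. Of the 359 positions that follow GG, 28 were a dominant TSS in E14 (7.80%), 26 in A1 and 27 in C7. Clusters covered 16.5% of the exon and 35.4% of these positions. Of the 54 positions in GGNNNAG, 12 were a dominant TSS in E14 (22.2%), and 57.4% lay inside a cluster. The letters were therefore found at many places with no cluster.

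Along exon 3 the first dominant TSS was at base 103 and the last at base 4502 in each line, which correspond to codons 123 and 1589 of 1684. The first 2000 bases held 25 of the 39 clusters in E14. The next 1000 bases held 2, positions 3001 to 4000 held 10, and the remainder held 2. Positions 2001 to 2500 held no cluster in any line, with 41 positions after GG and 5 in GGNNNAG. The first 500 bases held 5 clusters in E14, with 29 positions after GG and 7 in GGNNNAG. GC content ran from 48.8% to 57.8% over the 500-bp stretches, and was 55.6% in the one without a cluster.

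Neighbouring dominant TSSs of exon 3 were a median of 68.5 bp apart in E14 and A1 and 71 bp in C7, over 38 intervals, with a range of 25 to 597 bp in each line. Distances under 100 bp made up 25 of these intervals in E14, and 26 in A1 and in C7. In each line 4 exceeded 300 bp, of which 3 followed each other between 4355087 and 4356416 in E14 and the last lay near the 3′ end of the exon. Between facing cluster edges the gaps had a median of 45.5 bp and a minimum of 20 bp. The paper aggregated same-strand TSS clusters with a limit of 20 bp. The minimum, and with it the count and spacing of clusters, may thus reflect the calling, which was not tested.

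By reading frame, the dominant TSSs fell on codon position 1 at 6 clusters of exon 3 in E14, on position 2 at 22 and on position 3 at 11. The positions that follow GG in the exon were spread alike, with 48, 207 and 104. All 4769 stretches of 30 bases in exon 3 differed from each other, and 0 of them occurred in an annotated transcript of another gene. Introns and intergenic sequence were not searched.

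The 4 promoter clusters stood close together upstream of and across the annotated start of the long transcript. The first, chr10:4266085-4266176, was led by a start at 4266149, 231 bp upstream, and an interquantile width (the span between quantiles 0.1 and 0.9 of its 5′ ends) of 66 bp in E14, 63 bp in A1 and 59 bp in C7. The second, chr10:4266203-4266260, had its dominant TSS at 4266228, with widths of 34, 32 and 33 bp. The nearest to the annotated start was the third, chr10:4266324-4266442, 17 bp upstream at 4266363. It spanned 119 bp, but its interquantile width was 5 bp in each line, so it was the sharpest of the 4.

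The fourth promoter cluster, chr10:4266480-4266531, was the only one at the promoter whose dominant TSS differed between lines. It was at 4266502 in the 5′ UTR in E14 and 29 bp downstream at 4266531 in both clones, past the start codon at 4266519, while the interquantile width was 46 bp in all 3. The interquantile region ran from 4266486 to 4266531 in each line, so both bases lay inside it in all 3. How often each was used in a line is not known. A transcript from the E14 position holds the start codon of the long form. One from the clones' position begins at base 13 of the coding sequence. The moved dominant TSS does not show that either transcript was absent from a line. Both sequences have the dominant TSS in capitals, and the second begins with the start codon.

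chr10:4266490-4266515, E14: gccggcgagagtAggaaagccactga
chr10:4266519-4266544, A1 and C7: atgggtgcaggcAgttccaccgagca

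Neither position follows GG, and both have a pyrimidine before a purine, unlike most of the exonic clusters.

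Exonic clusters of Akap12 had a median interquantile width of 9 bp in E14 and 10 bp in A1 and in C7, with a range of 2 to 105 bp in E14 and A1 and 2 to 106 bp in C7. The median over all exonic clusters was 3 bp in each line. At the genes set beside Akap12 below it was 9 bp at Mki67, 12.5 bp at Ankrd11 and 13 bp at Resf1 in E14. It was 7.50 bp at Nucks1, 6 bp at Srrm2 and 3 bp at Tet1, so a median of this size was not particular to Akap12. Of the exonic clusters of Akap12, 55.8% in E14, 53.5% in A1 and 53.5% in C7 were no wider than 10 bp, against 68.1%, 67.6% and 68.2% of all exonic clusters. The promoter clusters had medians of 40, 39 and 39.5 bp, and the 6 intronic ones ranged from 2 to 18 bp in each line. The widest exonic cluster, chr10:4353346-4353472 in exon 3, spanned 127 bp, more than the third promoter cluster. At the other end, 10 clusters of the gene were 2 bp wide in all. The clusters of 1 gene are not replicates, so no test was made of these widths.

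**Figure D3:**
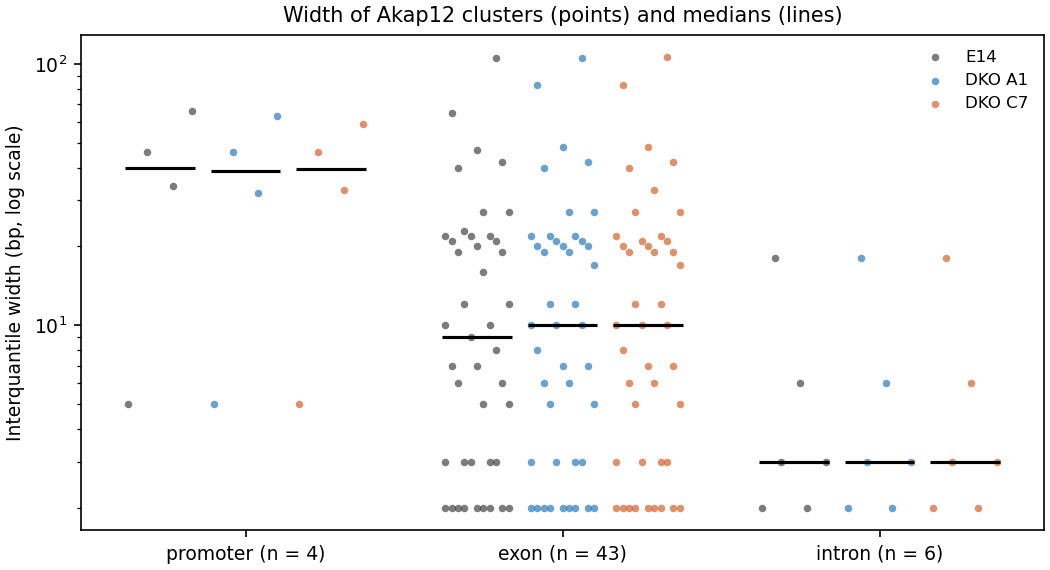
Interquantile width (bp, log scale) of each Akap12 cluster (points) by category and line, with medians (lines). Exonic clusters spread from 2 bp to over 100 bp, and their medians, 9 or 10 bp, lie below those of the 4 promoter clusters, 39 to 40 bp.

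No cluster of the gene was gained or lost between lines. All 53 clusters of E14 had an overlapping cluster in A1 and in C7, and no additional one was present in a clone. Over the whole series 0.709% of E14 clusters had no counterpart in A1 and 0.749% none in C7, while 1.11% of A1 clusters and 0.776% of C7 clusters had none in E14. Between the clones the shares were 1.17% of A1 clusters and 0.803% of C7 clusters. A count of 0 is thus near the background. The start and end were the same in all 3 lines for all 53 clusters, as they were for 98.5% of all shared clusters. Bounds this alike may come from a step of the calling that pooled the lines, which was not tested, so the presence of a cluster in a line does not show that transcripts began there in that line independently of the others.

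The base most used as a start differed more often. The dominant TSS of A1 was at another base than in E14 in 9 of the 53 clusters (17.0%), beside 23.8% of all shared clusters. In C7 it was at another base in 8 (15.1%), beside 21.1%. Between the clones it differed in 9 (17.0%), beside 25.2%. For exonic clusters alone the count was 7 of 43 in each clone (16.3%), beside 25.4% of all exonic clusters in A1 and 22.9% in C7. Akap12 thus did not exceed the background in any of these comparisons, and the clones differed from each other as often as A1 did from E14.

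The dominant TSS was at the same base in all 3 lines in 40 of the 53 clusters (75.5%), beside 66.3% of all shared clusters. Of the other 13 clusters, 5 differed in A1 only, 4 in C7 only and 4 had moved to the same base in both clones (7.55% of 53, beside 8.48% of all shared clusters). Most clusters of Akap12 were exonic and most of all clusters in E14 were at promoters, so these shares cover unlike sets. Neither share, nor that between the clones, was calculated over all exonic clusters. Where it had moved, the distance from E14 had a median of 5 bp in A1 (range 1 to 29) and 13.5 bp in C7 (range 1 to 34).

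The 4 clusters at which both clones shared a base other than that of E14 were the fourth promoter cluster, described above, 2 clusters in exon 3 and 1 in the 3′ UTR. In the cluster chr10:4357158-4357205 near the 3′ end of exon 3 the dominant TSS was at 4357175 in E14 and at 4357159 in both clones, 16 bp upstream. In chr10:4354877-4354878 it was at 4354878 in E14 and 4354877 in the clones, and in the 3′ UTR cluster chr10:4358639-4358640 it was at 4358639 and 4358640, so these last 2 moved by 1 bp. The dominant TSS of the 3′ UTR cluster follows GG in E14 and not in the clones. At the cluster with the 16-bp distance it follows GG at both positions, which are shown with the guanine pair in capitals.

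chr10:4357163-4357188, E14: cgtgccccagGGgcctgagtctcagg
chr10:4357147-4357172, A1 and C7: agcatggagaGGacaccgtgccccag

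The largest distance in exons was in C7 alone, in the cluster chr10:4353585-4353661, where E14 and A1 shared the dominant TSS 4353625 and C7 used 4353659, 34 bp downstream. It followed GG at the first position and not at the second. The cluster chr10:4354063-4354146 was led by 4354123 in E14 and C7 and by 4354097 in A1, 26 bp upstream, and both bases follow GG. The distances thus had no common direction. Of those in A1, 3 were downstream and 6 upstream, and of those in C7, 5 were downstream and 3 upstream.

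**Figure D4:**
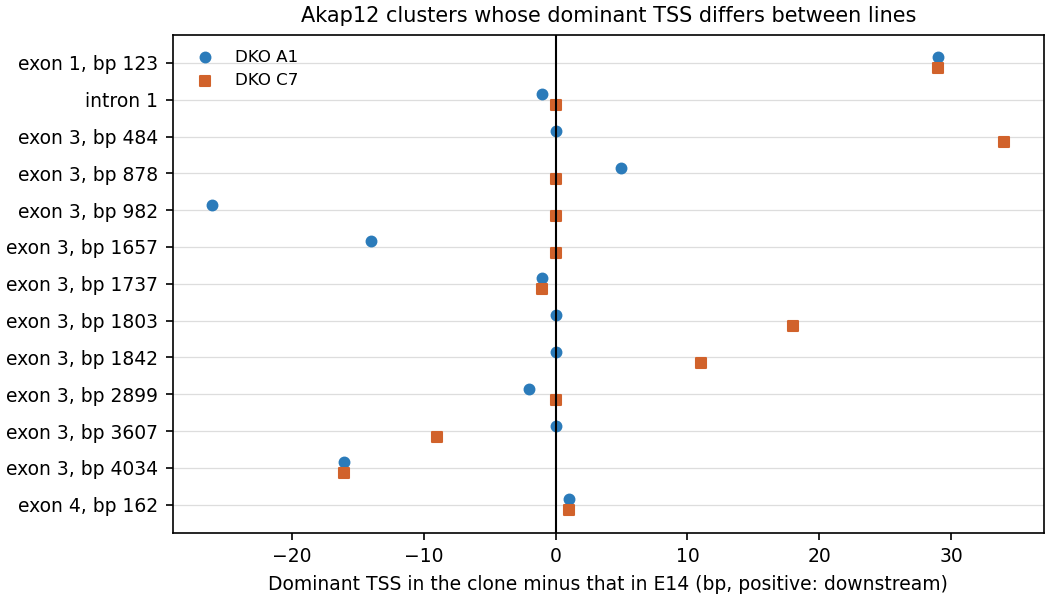
Distance (bp) of the dominant TSS in DKO A1 (circles) and DKO C7 (squares) from that in E14 for the 13 Akap12 clusters in which the lines differ, labelled by region and by position in the exon in E14. Both clones sit at the same base away from 0 in 4 clusters, and the distances run from 26 bp upstream to 34 bp downstream.

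Interquantile widths were the same in all lines in 42 of the 53 clusters (79.2%), beside 59.4% of all shared clusters, and differed in 11. These shares cover unlike sets, since 43 of the 53 were exonic, while 19872 of the 32857 clusters of E14 were promoter clusters. The median width in E14 was 20 bp for all promoter clusters and 3 bp for all exonic ones. The share of unchanged widths over all exonic clusters was not calculated. The region was wider in both clones than in E14 in 5 clusters of the gene (9.43%, beside 12.5% of all shared clusters). In 3 it was narrower in both (5.66%, beside 4.01%). The 5 were all exonic, or 11.6% of the 43 exonic clusters, beside 6.22% of all exonic clusters. In both clones 1 exonic cluster was narrower (2.33%, beside 2.11%). Of all exonic clusters of E14, 1859 of 4260 were under 3 bp wide, against 9 of the 43 of Akap12, so these shares rest on unlike widths. In the cluster chr10:4356691-4356710 of exon 3 the width was 3 bp in E14 and 20 bp in both clones, with the dominant TSS at 4356710 in each line. In chr10:4354063-4354146 it was 65 bp in E14 and 83 bp in both clones. The other 3 of the 5 differed by 1 bp. The first cluster of exon 3, chr10:4353235-4353257, was narrower in the clones, with 23 bp in E14 and 19 bp in both clones. With 1 merged set of positions per line, differences of this size could not be compared with the spread between replicates.

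On the opposite strand 12 clusters lay within the gene in each line, 11 of them in exon 3. Their letters differed from those of the same-strand clusters. None of the 11 dominant TSSs followed GG on its own strand in E14 or A1 and 1 did in C7, where 6.97% of the positions of that strand do, a count that 11 clusters cannot tell from the exon's own share. A cytosine was the starting base at 8 of the 11 in E14, 7 in A1 and 8 in C7, beside 30.1% of the positions of that strand. The 11 clusters share 1 gene, and the letters of opposite-strand exonic clusters of other genes were not counted. None of them lay in positions 2001 to 3000 or 4001 to 4798 of the exon in E14, where the same strand held 2 clusters each.

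For scale, the clusters of exon 3 were counted per kb and set beside the longest exons of other genes. Among 2991 protein-coding genes with an exon of at least 3000 bp and a promoter cluster in E14, exon 3 of Akap12 had the most, 8.13 clusters per kb in each line. In E14, 312 of these genes (10.4%) had any cluster in the longest exon, with a median of 0.293 per kb among them. Of 93 genes whose longest exon is at least 80% coding, 29 had clusters in E14, and Akap12 was again first. The gene was chosen for its exonic count, so the rank is a description.

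**Figure D5:**
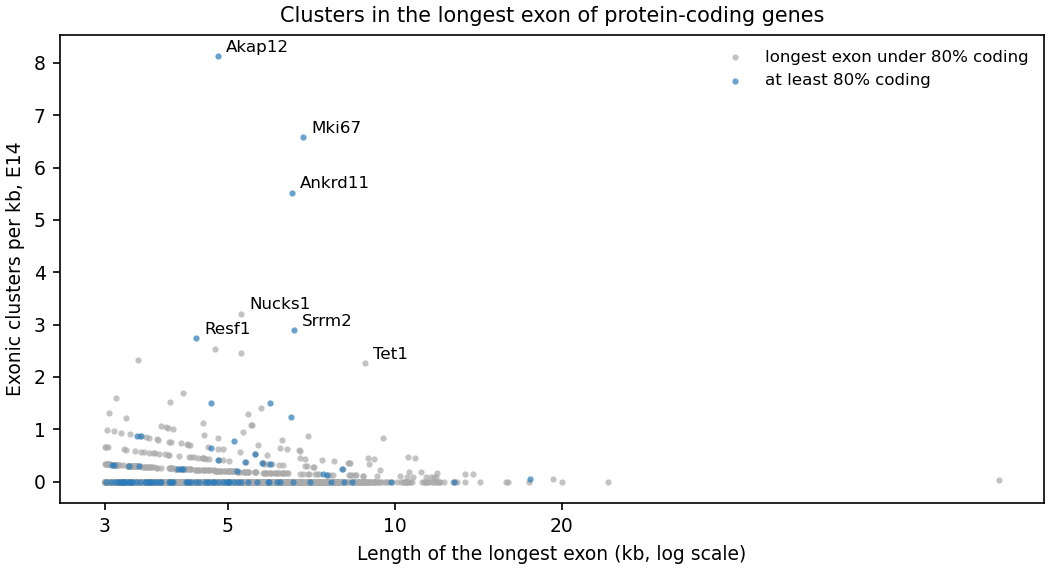
Exonic clusters per kb in E14 against the length of the longest exon (kb, log scale) for 2991 protein-coding genes, with exons at least 80% coding in blue. Akap12 stands at 8.13 per kb, above Mki67 at 6.58 and Ankrd11 at 5.52.

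The genes nearest to Akap12 in this measure in E14 were Mki67 (6.58 per kb), which encodes the proliferation marker Ki-67, and Ankrd11 (5.52 per kb), a chromatin regulator. They were followed by Nucks1 (3.21 per kb), Srrm2 (2.89 per kb), a protein of nuclear speckles, and Resf1 (2.74 per kb). Tet1, a 5-methylcytosine dioxygenase with 48 exonic clusters in E14, had 2.26 per kb. The exonic dominant TSSs followed GG in 55.8% of 52 clusters at Mki67, 52.1% of 48 at Tet1, 72.2% of 36 at Ankrd11 and 71.4% of 28 at Srrm2 in E14. In the longest exon of these genes 4.99%, 4.20%, 7.12% and 5.03% of positions follow GG, shares below those at their clusters, as at Akap12. The cluster shares are over all exons of a gene. The longest exon held 45 of these clusters at Mki67, 20 at Tet1, 36 at Ankrd11 and 19 at Srrm2. The number of exonic clusters was the same in the 3 lines at Akap12, Nucks1 (24 each) and Resf1 (13 each), while at 4 genes it was higher in at least 1 clone. In E14, A1 and C7 it was 52, 53 and 53 at Mki67, 48, 50 and 49 at Tet1, 36, 38 and 37 at Ankrd11, and 28, 28 and 30 at Srrm2. With 1 merged set per line these differences have no replicate check. These genes were picked for their clusters in E14, and the share of all genes with more exonic clusters in a clone was not calculated. Over all genes the exonic clusters numbered 4260 of 32857 clusters in E14, 4311 of 33005 in A1 and 4321 of 32870 in C7.

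Other genes of the anchoring system had few such clusters. The list held 24 genes, namely the other anchoring proteins, the catalytic and regulatory subunits of protein kinase A and its inhibitor peptides. A promoter cluster was present in all 3 lines at 17 of them, and 7 had no cluster in any line (Akap3, Akap4, Akap6, Akap14, Prkar1b, Prkar2b and Pkib). Exonic clusters were found at 6 genes in E14, 11 clusters in all, compared with 43 at Akap12, and the most at 1 gene was 3, at Akap2. A long exon alone did not go with clusters. The longest exon of Akap5 has 6588 bp and the gene had 1 promoter cluster and no exonic one, and Akap11, with 4441 bp, had 1 exonic cluster in each line. The number of clusters was the same in all 3 lines at 23 of the 24, the exception being Akap2, with 6 in E14 and 7 in each clone.

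As a check of the labels, promoter clusters were present in all 3 lines at 6 of 6 genes that mark embryonic stem cells and at 4 of 8 that mark other cells, with Sox17, Neurod1, Col1a1 and Thy1 present and Gata4, Gata6, Cdx2 and Pax6 absent. Presence of a cluster is not a level. Pwwp2a had 1 promoter cluster in each line and Pwwp2b none in any, E14 included, so the positions do not test the knockouts.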

How the data were processed

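Nuclear RNA of 8 CAGE-seq libraries (3 E14, 2 DKO A1, 3 DKO C7) was measured. The authors split the reads by barcode and kept those placed uniquely on mm10 by STAR 2.4.2a. Replicates were merged per line, and CAGEr was used for power-law normalization and clustering. The paper also states that same-strand TSS clusters were aggregated into consensus peaks. The submitters' processing notes also name SAMtools 1.3 and bedtools 2.17.0. The deposited clusters give positions (start, end, dominant TSS and blocks of the interquantile region) and a score, and the deposited score is 0 in every row, so no expression value was used. Depth and replicate error are not held in these values.

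Clusters were assigned with Python 3.11.15 and NumPy 2.4.6 to GENCODE release M21 (GRCm38, on which mm10 is based), in the order promoter (within 500 bp of a same-strand transcript start), exon, intron, intergenic. The authors' annotation was a later release. Clusters on 1 strand sharing 1 bp or more were taken as overlapping. Sequences were read from GENCODE transcripts and RefSeq promoter windows. Motifs were read on the strand of the cluster, overlapping matches counted. SciPy 1.17.1 gave 95% Wilson intervals for shares. Matplotlib 3.10.9 was used for plots. No p-value was calculated. The functions were tested on simulated clusters.

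The members, gene lists and comparisons were chosen with earlier results of these data known. Named genes were Akap12, Gm30570 and Zbtb2 beside it, Pwwp2a, Pwwp2b and the list of anchoring and protein kinase A genes. Mki67, Tet1, Ankrd11 and Srrm2 were named too, as were the 5 genes nearest to Akap12 in clusters per kb of the longest exon. The alternatives were other promoter windows (100 and 1000 bp), protein-coding transcripts only, other rules of membership, overlap, merging, width and movement, and other sets of genes. Sequence upstream of the annotated start of Akap12 was not analysed here.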

Additional observations from a re-analysis of the deposited data

How the results depend on the processing

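With neighbouring clusters within 100 bp merged, Akap12 had 20 clusters in E14, 20 in A1 and 20 in C7, in place of 53 in each. Measured between facing edges, the median spacing in exon 3 was 45.5 bp in E14, 45.5 bp in A1 and 45.5 bp in C7. Read at the first and last bases of interquantile regions in place of the dominant TSS, the share of exonic positions after GG in E14 was 57.0%. The dominant TSS was itself the first or last base of the cluster at 28 exonic clusters in E14, so the readings share many bases. A moved dominant TSS was counted from E14 to A1 at 5 clusters when at least 3 bp was required and at 4 when at least 10 bp was required. With at least 10 bp the count was 5 from E14 to C7 and 5 from A1 to C7. Without clusters under 3 bp in interquantile width, the gene had 42 clusters in each line, 34 of them exonic, and the median exonic width rose to 14 bp in E14, 18 bp in A1 and 18 bp in C7. Exon 3 of Akap12 kept rank 1 in cluster density in each line under this setting, with exons of at least 2000 bp, and with no promoter cluster required. The rank among genes whose longest exon is at least 80% coding, and the letters GG and AG, were added after the data had been seen. No paired analysis was possible because the authors merged the replicates of each line before calling clusters, and for the same reason no replicate could be left out. The depth behind a cluster is unknown, so a base called dominant from few 5′ ends cannot be told from one called from many.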
